A study of Mus musculus with 15 samples.

Results

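The 8 genes *Vcam1*, *Icam1*, *Alcam*, *Esm1*, *Itga4*, *Itgal*, *Itgb1* and *Itgb2* encode adhesion molecules that hold leukocytes to tissue cells and the integrin chains that bind them. They were chosen by symbol from the 35142 genes of the table, without a threshold on their values but with earlier results of these data known. Counts of changed genes among the 8 are thus not those of an unbiased sample. The shares of all genes given beside them do not test the 8 as a set. All 8 were found, and all 8 were among the 15360 genes that reached 1 CPM (reads scaled to library size) in 2 or more cultures and were tested.

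RNA was taken from 15 cultures of dissociated cerebellar cells of wild-type C57BL/6 mouse pups (P0 to P4), labelled as brain neurons. All cultures were kept for 14 days in vitro, and 5 were left unstimulated. For 18 h, 5 others received recombinant mouse IL-12p70, the cytokine's active form of a pair of subunits, at 30 ng/ml and 5 at 100 ng/ml. The comparison asks which genes of whole cultures differ in level when IL-12 is present, and at which concentration. No source used here says whether the cultures of a group came from different pups or litters, so the p-values measure the spread between these cultures, which may be technical.

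VCAM1 and ICAM1 are immunoglobulin-type membrane proteins that cytokines such as TNF and IL-1 raise on endothelium and, in the brain, also on astrocytes and microglia. VCAM1 binds the integrin α4β1, made of the chains ITGA4 and ITGB1. ICAM1 binds αLβ2, also called LFA-1 and made of ITGAL and ITGB2, and αMβ2. ALCAM is the membrane ligand of CD6 on T cells. ESM1, also called endocan, is a secreted proteoglycan that binds LFA-1 and is known mostly from endothelium.

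The cultures held between 25746096 and 38435850 estimated reads, and the estimates of the 8 genes rested on 145 reads (the lowest for *Esm1*) to 28737 reads (the highest for *Itgb1*) per culture. Marker lists showed mixed cultures in which glial markers far exceeded neuronal ones, against the label. The 10 microglia markers in the table summed to 6990 to 9878 TPM (a level scaled to length and library size) in unstimulated cultures, the 8 astrocyte markers to 3755 to 4214 TPM, the 9 oligodendrocyte-lineage markers to 6233 to 9246 TPM, and the 12 cerebellar neuron markers to 260 to 330 TPM. Endothelial markers were low and uneven. Of the 11, 6 averaged under 1 TPM, and *Cldn5*, a defining tight-junction gene of brain endothelium, was at 0 reads in every culture, whereas the VEGF receptors *Flt1* and *Kdr* averaged 14.7 and 4.68 TPM, *Egfl7* 4.41 TPM and *Cdh5* (VE-cadherin) 2.47 TPM. Of the T and NK cell markers, 10 of 11 averaged under 1 TPM, with *Ncr1* and *Gzmb* at 0 reads in every culture. *Cd4*, at a mean of 2.76 TPM, and *Klrb1c*, at 0.81 TPM, passed the filter on low counts. Of the 7 neutrophil markers 0 passed the filter on low counts. Beside the shifts of microglia and astrocyte markers given with the genes, 3 of 9 oligodendrocyte-lineage markers fell at 100 ng/ml, and of the 12 neuron markers 1 rose at both concentrations (*Tubb3*) while 1 fell at 100 ng/ml (*Calb1*) and 2 at 30 ng/ml (*Calb1* and *Gad1*). Of all genes, 5.83% rose and 3.93% fell at 100 ng/ml, and 4.16% rose and 3.71% fell at 30 ng/ml. The median log2 fold change of the neuron markers was −0.24 at the higher and −0.49 at the lower concentration, where 9 of 12 had an unadjusted p under 0.05 and DESeq2 called 5. The values are levels of whole cultures, in which fewer cells of a type and less RNA per cell cannot be told apart.

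Of the 8 genes, 4 changed at 100 ng/ml against unstimulated cultures at an FDR under 0.05 (Benjamini-Hochberg adjusted p of edgeR's quasi-likelihood test, over all genes tested), beside 9.77% of all genes. Of these, 3 rose (*Vcam1*, *Icam1* and *Esm1*, beside 5.83% of all genes) and 1 fell (*Alcam*, beside 3.93%). With 30 ng/ml, 3 of the 8 changed, beside 7.87% of all genes. Here 2 rose (*Vcam1* and *Esm1*, beside 4.16% of all genes) and 1 fell (*Itgb2*, beside 3.71%). Between 100 and 30 ng/ml 1 of the 8 changed, beside 0.579% of all genes, and it was *Icam1*, which was higher at 100 ng/ml, as were 0.501% of all genes. The groups lay apart without overlap for the same 3 genes that rose at 100 ng/ml (4.34% of all genes lay apart upward), for the same 2 that rose at 30 ng/ml (5.44%), for *Alcam* downward at 30 ng/ml (3.46%), and for *Icam1* between the concentrations (1.74%). The 8 genes had a median log2 fold change of 0.14 at the higher and −0.07 at the lower concentration, where the medians of all genes tested were −0.0038 and 0.00014. Both comparisons use the same unstimulated cultures.

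**Figure D1:**
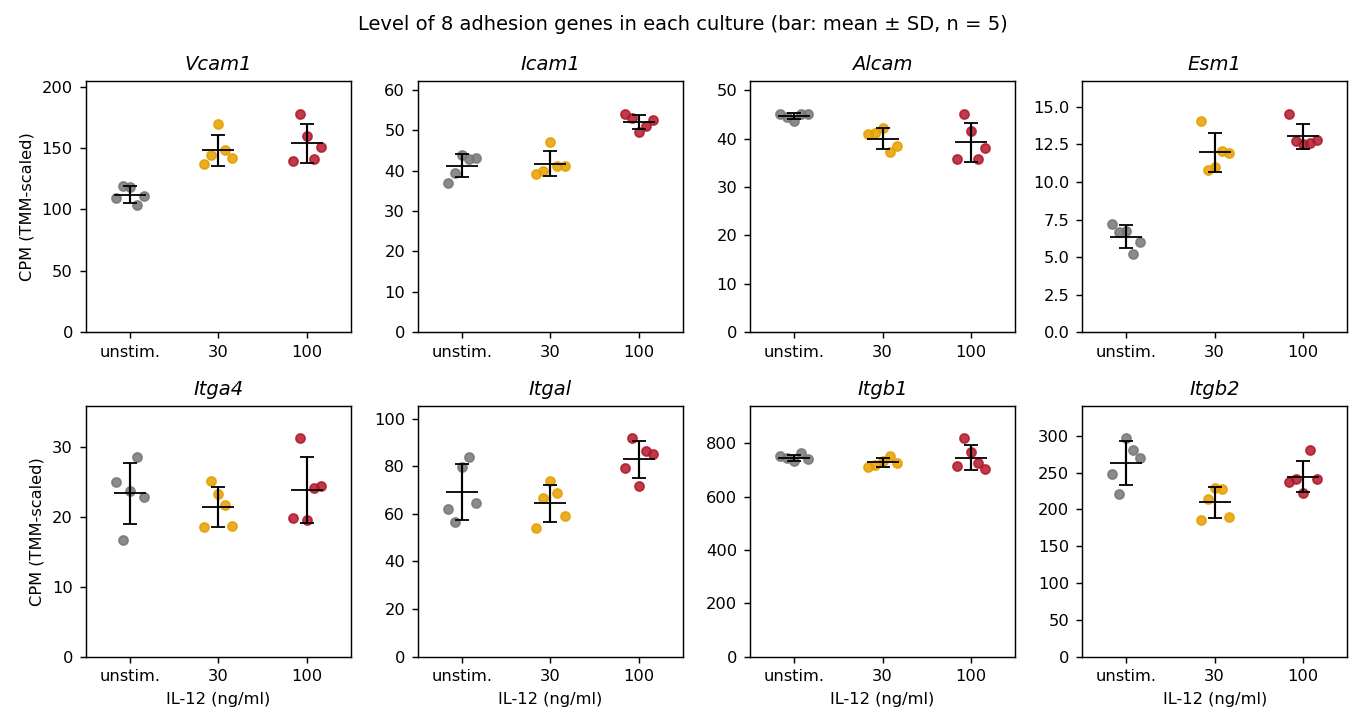
Level of the 8 genes in each culture, in CPM scaled with TMM (y axis, from 0), by IL-12 concentration (x axis, ng/ml); points are cultures and bars the mean ± SD of 5 cultures. *Vcam1* and *Esm1* lie higher at 30 and 100 ng/ml than in any unstimulated culture, *Icam1* only at 100 ng/ml, and the integrin chains overlap between groups.

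Sequences upstream of transcription starts were read for the ligands from RefSeq's gene starts on GRCm38.p6, an earlier build than the GRCm39 used for genes here. The table held 5 of the 8 genes (*Icam1*, *Alcam*, *Esm1*, *Itga4* and *Itgb1*), and *Vcam1*, *Itgal* and *Itgb2* had no entry. Shown are the 250 bases before the start of *Icam1*, the gene that rose at 100 ng/ml and not at 30 ng/ml, at chr9:21015690-21015939 on the plus strand, and of *Esm1*, the gene with the largest fold change, at chr13:113209409-113209658 on the plus strand. Capitals mark matches to the motifs searched.
Icam1: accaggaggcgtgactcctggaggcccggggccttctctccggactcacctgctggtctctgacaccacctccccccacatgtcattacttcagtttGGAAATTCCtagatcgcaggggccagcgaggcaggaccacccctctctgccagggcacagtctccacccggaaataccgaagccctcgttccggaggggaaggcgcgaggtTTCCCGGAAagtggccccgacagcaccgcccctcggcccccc
Esm1: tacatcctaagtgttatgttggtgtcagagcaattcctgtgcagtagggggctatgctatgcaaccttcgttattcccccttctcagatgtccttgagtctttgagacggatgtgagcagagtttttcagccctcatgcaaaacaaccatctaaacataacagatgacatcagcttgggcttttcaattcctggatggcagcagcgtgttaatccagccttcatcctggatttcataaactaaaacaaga
Searched on both strands were the κB consensus, by its name alone, and the letters GGAAATTCC, a κB-type site, TTCNNNGAA, the core bound by STAT proteins, and TGANTCA, the site of AP-1 factors. The stretch before *Icam1* held GGAAATTCC at positions −153 to −145 and TTCNNNGAA at positions −42 to −34, as TTCCCGGAA, counted so that −1 is the base before the start. The κB consensus and TGANTCA had no match there. None of the 4 motifs was found before *Esm1*, *Alcam*, *Itga4* or *Itgb1*, and the 2 matches before *Icam1* do not overlap each other. Of 32851 promoters of the same length, 0.286% held GGAAATTCC, 7.02% TTCNNNGAA, 6.75% TGANTCA and 3.9% the κB consensus. A match is a run of letters, and no binding was measured here.

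*Vcam1* (ENSMUSG00000027962, chromosome 3, 115903598 to 115923355, minus strand, GRCm39) encodes the ligand of α4β1. The unstimulated cultures held 109.0, 119.2, 118.6, 103.2 and 110.7 CPM (112 ± 6.77, SD, n = 5). The 30 ng/ml cultures held 137.1, 144.5, 169.5, 148.7 and 141.7 CPM (148 ± 12.6, SD, n = 5). The 100 ng/ml cultures held 139.8, 177.9, 160.2, 140.9 and 150.6 CPM (154 ± 15.8, SD, n = 5). Every stimulated culture lay above every unstimulated culture, while the cultures of both concentrations interleaved. Against unstimulated cultures the log2 fold change was 0.46 (SE 0.069, edgeR FDR = 0.000508) at 100 ng/ml and 0.40 (SE 0.069, edgeR FDR = 0.00201) at 30 ng/ml. Between the concentrations it was 0.05, with a 95% interval of −0.08 to 0.19 (edgeR FDR = 0.793). The transcript Vcam1-201 held 91.0% of the gene's TPM, and 0 to 3 reads per culture were assigned to *Gm43109*, the antisense gene that overlaps *Vcam1*. Astrocyte markers moved with *Vcam1* at 30 ng/ml, where their sum was 4448 to 5201 TPM. There 3 of 8 were called higher (*Aldoc*, *Aldh1l1* and *Slc1a3*), beside 4.16% of all genes. The sum at 100 ng/ml was 4174 to 4631 TPM, with *Aldoc* higher and *Gja1* lower. Per 100 TPM of astrocyte markers, *Vcam1* stood at 1.34 TPM (1.28 to 1.40) in unstimulated cultures, 1.58 TPM (1.32 to 1.72) at 30 ng/ml and 1.63 TPM (1.39 to 1.89) at 100 ng/ml, and on that scale the lowest stimulated cultures overlapped the unstimulated ones. The part of astrocyte RNA in the rise was not tested.

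*Icam1* (ENSMUSG00000037405, chromosome 9, 20926672 to 20940113, plus strand) encodes the ligand of LFA-1. Unstimulated cultures held 37.08, 39.47, 43.90, 42.84 and 43.11 CPM (41.3 ± 2.90, SD, n = 5). Cultures with 30 ng/ml held 39.31, 39.94, 47.08, 41.26 and 41.09 CPM (41.7 ± 3.10, SD, n = 5). Cultures with 100 ng/ml held 54.11, 53.01, 49.64, 51.03 and 52.46 CPM (52.05 ± 1.75, SD, n = 5). All cultures with 100 ng/ml were above all others. The cultures with 30 ng/ml lay within the range of the unstimulated ones, except the third replicate, at 47.08 CPM, which was above it. *Icam1* rose at 100 ng/ml by 0.34 on the log2 scale (SE 0.055, edgeR FDR = 0.00108). The log2 fold change with 30 ng/ml was 0.02, with a 95% interval of −0.09 to 0.13 (edgeR FDR = 0.899). The difference between the concentrations was itself past the threshold, with a log2 fold change of 0.32 (SE 0.055, edgeR FDR = 0.00887), and over 25 other settings of the analysis its FDR stayed between 2.29e-05 and 0.0425. The gene is thus the one of the 8 whose level separated the 2 concentrations. The transcript Icam1-201 held 97.9% of the TPM of the gene, and the antisense gene *Gm47079* had 0 to 8 reads per culture. Microglia markers moved with this difference, with a median log2 fold change of 0.31 between the concentrations over 10 markers. Of the 10, edgeR's quasi-likelihood test called 0 and limma 0, the likelihood-ratio test and DESeq2 called 1, and 9 had an unadjusted p under 0.05. Per 100 TPM of these markers, *Icam1* stood at 0.340 TPM (0.292 to 0.390) in unstimulated cultures, 0.461 TPM (0.412 to 0.506) at 30 ng/ml and 0.470 TPM (0.392 to 0.514) at 100 ng/ml. On that scale the 2 concentrations overlapped each other and both lay above the unstimulated cultures. The marker sum itself averaged 8462 TPM unstimulated, 6401 TPM at 30 ng/ml and 7654 TPM at 100 ng/ml. The mean TPM of *Icam1* was 28.4, 29.3 and 35.7 in the same order. Its higher ratio at 30 ng/ml thus went with the lower marker sum and is no clear rise in its level. Per 100 TPM of astrocyte markers, by contrast, *Icam1* stood at 0.696 TPM (0.642 to 0.768), 0.617 TPM (0.539 to 0.669) and 0.792 TPM (0.758 to 0.846) in the same order. On that scale the lowest cultures with 100 ng/ml overlapped the highest unstimulated ones. The separation of the *Icam1* groups thus differed with the base at both concentrations, and which cells hold its RNA was not tested.

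*Alcam* (ENSMUSG00000022636, chromosome 16, 52069359 to 52274437, minus strand) encodes the ligand of CD6. It stood at 45.02, 44.46, 43.72, 45.10 and 45.13 CPM in unstimulated cultures (44.7 ± 0.606, SD, n = 5). With 30 ng/ml it stood at 40.90, 41.15, 42.29, 37.24 and 38.44 CPM (40.0 ± 2.09, SD, n = 5). With 100 ng/ml it stood at 35.69, 44.99, 41.64, 35.69 and 38.00 CPM (39.2 ± 4.05, SD, n = 5). The unstimulated cultures were tightly grouped, all cultures with 30 ng/ml lay below them, and at 100 ng/ml the second replicate lay within their range. The fall at 100 ng/ml was −0.19 on the log2 scale (SE 0.059, edgeR FDR = 0.0482), close to the threshold, and it missed the threshold in 20 of 25 other settings, with FDRs of up to 0.121. The fold change with 30 ng/ml was −0.16 on the log2 scale (SE 0.059, edgeR FDR = 0.104). Between the concentrations it was −0.03, with a 95% interval of −0.15 to 0.08. The groups at 30 ng/ml did not overlap although the test across genes missed its threshold. Of the gene's TPM, 53.2% came from Alcam-207 and 30.0% from Alcam-201. *Cd6*, the receptor of ALCAM on T cells, did not pass the filter on low counts.

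*Esm1* (ENSMUSG00000042379, chromosome 13, 113346021 to 113354632, plus strand) encodes endocan and had the lowest read counts of the 8 genes, 145 to 464 reads per culture. Unstimulated cultures held 7.185, 6.668, 6.757, 5.199 and 6.000 CPM (6.36 ± 0.777, SD, n = 5). Levels under 30 ng/ml were 14.09, 10.77, 10.97, 12.06 and 11.93 CPM (11.96 ± 1.32, SD, n = 5). Levels under 100 ng/ml were 14.54, 12.75, 12.54, 12.61 and 12.82 CPM (13.05 ± 0.837, SD, n = 5). No stimulated culture reached down to the highest unstimulated one, and the ranges of both concentrations overlapped. The log2 fold change was 1.03 (SE 0.090, edgeR FDR = 1.8e-06) at 100 ng/ml, a 2.05-fold higher level. Under 30 ng/ml it was 0.91 (SE 0.091, edgeR FDR = 2.67e-05), a 1.88-fold higher level. The difference between the concentrations was 0.13, with a 95% interval of −0.04 to 0.29 (edgeR FDR = 0.573). *Esm1* had the largest fold change of the 8 genes at both concentrations, and its calls held in all 25 other settings. It has 1 transcript in the table, and *Gzmk*, which overlaps it on the opposite strand, was at 0 reads in every culture. Of the 6 endothelial markers tested, 0 were called higher at either concentration. The sums of the list were 29.4 to 38.9 TPM in unstimulated cultures, 24.8 to 30.0 TPM at 30 ng/ml and 22.9 to 30.8 TPM at 100 ng/ml. *Flt1* alone was called lower, at both concentrations, with log2 fold changes of −0.57 and −0.60 at 100 and 30 ng/ml. It averaged 18.95 TPM unstimulated, 12.5 TPM at 30 ng/ml and 12.8 TPM at 100 ng/ml, so the sums largely follow this 1 gene. Per 100 TPM of astrocyte markers, *Esm1* stood at 0.124 TPM (0.107 to 0.145) in unstimulated cultures, 0.205 TPM (0.180 to 0.223) at 30 ng/ml and 0.229 TPM (0.216 to 0.240) at 100 ng/ml, again without overlap with the unstimulated cultures. Markers of mural cells and fibroblasts summed to 679 to 779 TPM unstimulated, 655 to 820 TPM at 30 ng/ml and 730 to 978 TPM at 100 ng/ml. At 100 ng/ml 2 of 7 were called higher (*Pdgfrb* and *Col1a1*), beside 5.83% of all genes.

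**Figure D2:**
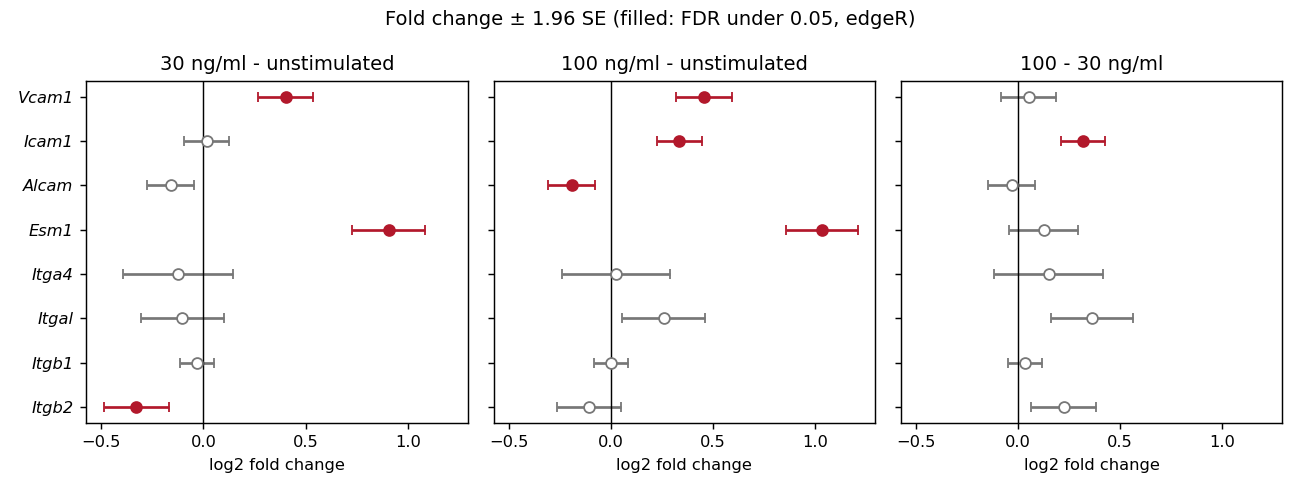
Log2 fold change of the 8 genes (x axis) in the 3 comparisons, from 1 fit of all 15 cultures; points are estimates, bars 95% intervals, and filled points have an edgeR FDR under 0.05. *Esm1* and *Vcam1* are higher at both concentrations, *Icam1* at 100 ng/ml against both other groups, *Alcam* is lower at 100 ng/ml and *Itgb2* at 30 ng/ml.

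On the integrin side, 1 of the 4 chains passed the threshold in any comparison of groups, and that was *Itgb2* at 30 ng/ml. *Itga4* (ENSMUSG00000027009, chromosome 2, 79085660 to 79163467, plus strand), the α4 chain, stood at 25.08, 16.78, 23.70, 28.65 and 22.89 CPM in unstimulated cultures (23.4 ± 4.32, SD, n = 5). In cultures given 30 ng/ml it stood at 18.65, 25.16, 23.28, 21.75 and 18.69 CPM (21.5 ± 2.86, SD, n = 5). In cultures given 100 ng/ml it stood at 19.93, 31.30, 19.57, 24.25 and 24.51 CPM (23.9 ± 4.74, SD, n = 5). The 3 groups overlapped and the cultures within each were widely spread. Its log2 fold change was 0.03 (95% interval −0.24 to 0.29, edgeR FDR = 0.933) at 100 ng/ml and −0.12 (95% interval −0.39 to 0.14, edgeR FDR = 0.646) at 30 ng/ml. *Itga4* is the least abundant integrin chain of the 4, at a mean of 3.77 TPM, and *Cerkl*, which overlaps it on the opposite strand, had 13 to 29 reads per culture.

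*Itgb1* (ENSMUSG00000025809, chromosome 8, 129411876 to 129460618, plus strand) encodes β1, the partner of α4 and of many other α chains. Its levels were 750.8, 743.1, 731.9, 762.3 and 739.7 CPM in unstimulated cultures (746 ± 11.6, SD, n = 5). They were 710.9, 718.4, 734.3, 753.9 and 725.8 CPM at 30 ng/ml (729 ± 16.6, SD, n = 5). They were 715.5, 818.2, 766.4, 724.4 and 703.2 CPM at 100 ng/ml (746 ± 47.1, SD, n = 5). The groups overlapped, and the spread was widest at 100 ng/ml, where the second replicate was the highest of all 15 cultures. The 95% intervals of the log2 fold change were −0.08 to 0.08 at 100 ng/ml (edgeR FDR = 0.999) and −0.12 to 0.05 at 30 ng/ml (edgeR FDR = 0.705), the narrowest among the 8 genes. The transcript Itgb1-201 held 98.3% of its TPM.

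*Itgal* (ENSMUSG00000030830, chromosome 7, 126895432 to 126934320, plus strand) encodes αL, which pairs with β2 alone. It stood at 61.90, 56.65, 79.55, 83.68 and 64.51 CPM in unstimulated cultures (69.3 ± 11.7, SD, n = 5). Its levels with 30 ng/ml were 54.20, 66.80, 73.66, 68.74 and 59.04 CPM (64.5 ± 7.80, SD, n = 5). Its levels with 100 ng/ml were 79.42, 91.66, 71.61, 86.18 and 85.33 CPM (82.8 ± 7.63, SD, n = 5). The cultures with 100 ng/ml were mostly the higher ones, but their lowest overlapped both other groups. The log2 fold change was 0.26 (SE 0.103, edgeR FDR = 0.121) at 100 ng/ml. Of 25 other settings 1 passed the threshold there, without the fourth unstimulated replicate (edgeR FDR = 0.0461), and FDRs reached 0.252. At 30 ng/ml the log2 fold change was −0.10 (SE 0.104, edgeR FDR = 0.613). Between the concentrations it was 0.36 (SE 0.103, edgeR FDR = 0.153). Here 2 of 25 other settings passed the threshold (edgeR's likelihood-ratio test, FDR = 0.0434, and DESeq2, FDR = 0.0476), and FDRs reached 0.367. Of the TPM of the gene, 62.7% came from Itgal-201, 19.1% from Itgal-202 and 17.4% from Itgal-203.

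*Itgb2* (ENSMUSG00000000290, chromosome 10, 77366086 to 77401542, plus strand) encodes β2, the chain shared by the leukocyte integrins LFA-1 and αMβ2. Unstimulated cultures held 248.4, 220.8, 296.5, 280.7 and 270.1 CPM (263 ± 29.5, SD, n = 5). Cultures with 30 ng/ml held 185.1, 214.9, 229.7, 227.5 and 190.3 CPM (209.5 ± 20.8, SD, n = 5). Cultures with 100 ng/ml held 237.1, 241.6, 222.8, 280.3 and 241.1 CPM (244.6 ± 21.4, SD, n = 5). The lower levels at 30 ng/ml still overlapped the second unstimulated replicate, and the cultures with 100 ng/ml lay within the unstimulated range. *Itgb2* fell at 30 ng/ml by 0.33 on the log2 scale (SE 0.081, edgeR FDR = 0.0185). The FDR was 0.0579 without the first and 0.0564 without the fifth replicate at 30 ng/ml, and 0.0594 without the third and 0.0501 without the fourth unstimulated replicate. The fold change with 100 ng/ml was −0.11 on the log2 scale (SE 0.081, edgeR FDR = 0.441), and between the concentrations 0.22 (SE 0.081, edgeR FDR = 0.262).

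Microglia markers moved with *Itgb2*. Of the 10 markers, 6 were called lower at 30 ng/ml (among them *Trem2*, *Cx3cr1* and *C1qa*), beside 3.71% of all genes. For 100 ng/ml, edgeR called 0 of the 10, as did its likelihood-ratio test, DESeq2 and limma, and 1 had an unadjusted p under 0.05. Their median log2 fold change was −0.42 at the lower and −0.12 at the higher concentration, and their summed levels were 5543 to 6977 TPM at 30 ng/ml and 6646 to 8849 TPM at 100 ng/ml. The part of microglial RNA in the fall of *Itgb2* was not tested. Levels were also expressed per 100 TPM of the summed markers, a measure added after the values had been seen. An exact two-sided permutation test over cultures was used, with adjustment over 10 comparisons. Its smallest possible p is 0.00794 with 5 against 5 cultures. Other ratios given here were left out of that adjustment. As the ratios were chosen after their values had been seen, these p-values are descriptions. Per 100 TPM of microglia markers, *Itgb2* stood at 1.79 TPM (1.58 to 1.92) in unstimulated cultures, 1.90 TPM (1.87 to 1.97) at 30 ng/ml and 1.83 TPM (1.73 to 1.94) at 100 ng/ml. The ranges overlapped at 100 ng/ml (exact permutation p = 0.690, adjusted 0.690) and at 30 ng/ml (exact permutation p = 0.0952, adjusted 0.136). Neither p shows that the ratio was unchanged. The ratio does not test where the fall of *Itgb2* comes from.

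*Itgal* behaved differently on the same scale. Per 100 TPM of microglia markers, it stood at 0.268, 0.260, 0.272, 0.268 and 0.258 TPM in unstimulated cultures, at 0.336, 0.329, 0.347, 0.330 and 0.335 TPM at 30 ng/ml, and at 0.327, 0.418, 0.340, 0.312 and 0.354 TPM at 100 ng/ml. All stimulated cultures lay above all unstimulated ones, including those with 30 ng/ml, where the CPM of *Itgal* had overlapped. The mean ratio was 26.5% higher at 30 ng/ml and 32.0% higher at 100 ng/ml (exact permutation p = 0.00794 for each, adjusted 0.0132). The marker sum itself averaged 8462 TPM unstimulated, 6401 TPM at 30 ng/ml and 7654 TPM at 100 ng/ml. A gene of unchanged TPM thus stands higher on this scale with IL-12. The mean TPM of *Itgal* was 22.5, 21.5 and 26.7 in the same order, so its higher ratio at 30 ng/ml is no rise in its level. With single markers as the denominator, the groups lay apart for 8 of 10 markers at either concentration (not for *Tmem119* and *Csf1r* at 30 ng/ml, nor for *Tmem119* and *Aif1* at 100 ng/ml). Over 12 other ways to form the ratio, the mean ratio was 25.2% to 27.2% higher at 30 ng/ml and 25.6% to 35.6% higher at 100 ng/ml. *Itga4* stood at 0.0453 TPM per 100 TPM of the markers in unstimulated cultures (0.0414 to 0.0534), 0.0569 TPM at 30 ng/ml (0.0550 to 0.0607, exact permutation p = 0.00794, adjusted 0.0132) and 0.0504 TPM at 100 ng/ml (0.0394 to 0.0681, exact permutation p = 0.405, adjusted 0.467). The ratio of *Itga4* lay apart from unstimulated cultures at the lower concentration and was widely spread at the higher one. Its own mean TPM was 3.82 unstimulated, 3.64 at 30 ng/ml and 3.84 at 100 ng/ml. The higher ratio at 30 ng/ml thus went with the lower marker sum and not with a higher level of *Itga4*. All of these ratios take the markers as their base, and whether the integrins and the markers come from the same cells was not tested.

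**Figure D3:**
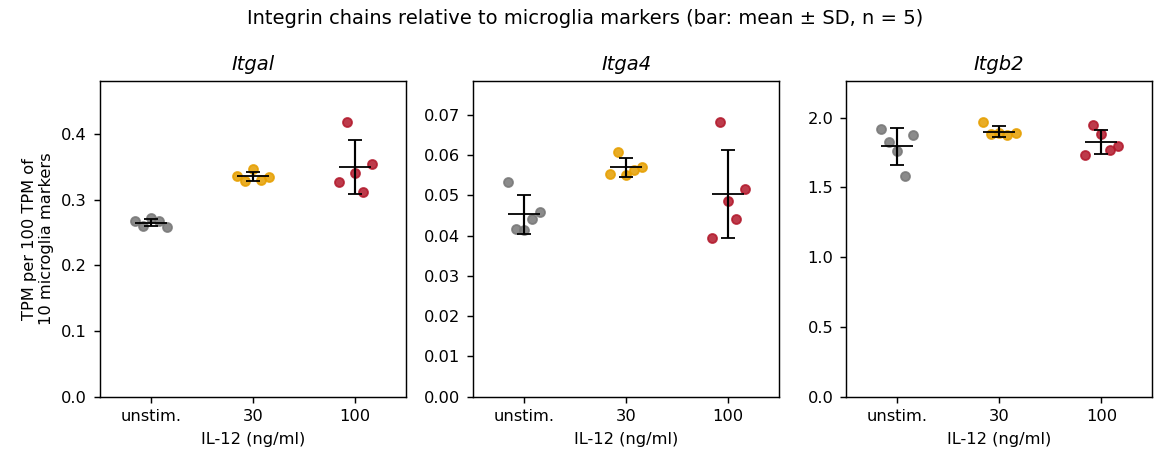
Levels of *Itgal*, *Itga4* and *Itgb2* (y axis, TPM per 100 TPM of 10 summed microglia markers, from 0) by IL-12 concentration (x axis, ng/ml); points are cultures and bars the mean ± SD of 5 cultures. *Itgal* is 0.258 to 0.272 unstimulated and at least 0.312 in every stimulated culture, whereas the *Itgb2* groups overlap. The summed markers average 8462, 6401 and 7654 TPM in the order of the x axis.

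Shares were also taken among the 4 α chains that pair with β2, as a description without a test. *Itgal* made up 15.7% ± 1.69 of their summed TPM without IL-12, 18.1% ± 0.727 with 30 ng/ml and 19.7% ± 1.29 with 100 ng/ml (SD, n = 5). Its ranges were 13.8% to 18.4%, 17.4% to 18.9% and 18.2% to 21.1% in that order, so both stimulated groups overlapped the unstimulated one. *Itgam*, the αM chain of microglia and other myeloid cells, made up 83.3% ± 1.52, 80.9% ± 0.701 and 79.4% ± 1.37 of it in the same order, and *Itgax* and *Itgad* together held the small remainder. Most β2 α-chain RNA was thus *Itgam* in every group. The TPM ratio of *Itgal* to *Itgb2* was 0.149 (0.138 to 0.170) in unstimulated cultures, 0.177 (0.171 to 0.184) at 30 ng/ml and 0.192 (0.176 to 0.215) at 100 ng/ml, without overlap of the stimulated and unstimulated cultures (exact permutation p = 0.00794 for each, adjusted 0.0132).

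Compared per length, *Itgb1* was the most abundant of the 22 integrin chains tested, at a mean of 311 TPM over groups, and *Itgb2* stood in place 3 at 137 TPM. *Itgb5*, a partner of αV, lay between them at a mean of 283 TPM, and in unstimulated cultures, at 314 ± 23.1 TPM (SD, n = 5), it did not differ from *Itgb1* (313 ± 11.1 TPM) beyond the spread. *Itgal* was 12th at 23.6 TPM and *Itga4* 16th at 3.77 TPM. Among the ligands the mean level was 67.6 TPM for *Vcam1*, 31.1 TPM for *Icam1*, 21.9 TPM for *Alcam* and 8.39 TPM for *Esm1*. The order of the ligand means was the same in each group, but the lowest unstimulated culture of *Icam1*, at 26.3 TPM, lay under the highest of *Alcam*, at 26.5 TPM. *Vcam1* stood at 1.94 times the TPM of *Icam1* (1.67 to 2.15) in unstimulated cultures, at 2.55 times (2.45 to 2.66) at 30 ng/ml and at 2.05 times (1.80 to 2.35) at 100 ng/ml, so the ratio lay apart from unstimulated cultures at 30 ng/ml and overlapped them at 100 ng/ml.

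**Figure D4:**
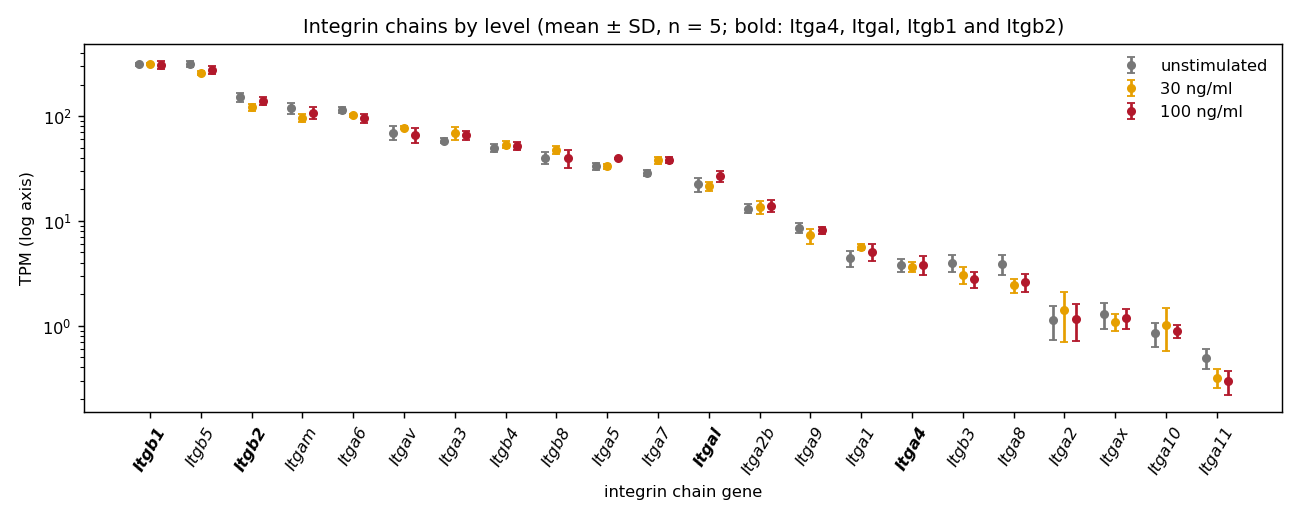
Level of 22 integrin chains (y axis, TPM on a log axis), ordered by mean level (x axis), as mean ± SD of 5 cultures in each group. *Itgb1* and *Itgb2* stand in places 1 and 3 at 311 and 137 TPM, and *Itgal* and *Itga4* stand 12th and 16th at 23.6 and 3.77 TPM.

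The other genes of the adhesion machinery were read from fixed lists. Beside the counts of all these lists, 9.77% of all genes were called at 100 ng/ml, 7.87% at 30 ng/ml and 0.579% between the concentrations. The lists were not tested against these shares. Of 16 other integrin α chains 14 were tested, and 2 rose and 2 fell at 100 ng/ml. Those that rose were *Itga7*, a laminin-binding partner of β1, with a log2 fold change of 0.44 (SE 0.056, edgeR FDR = 0.000116), and *Itga5*, the α chain of the fibronectin receptor, with 0.24 (SE 0.047, edgeR FDR = 0.00437). Those that fell were *Itga6*, at −0.24 (edgeR FDR = 0.0243), and the low *Itga11*, at −0.67 (edgeR FDR = 0.0447). *Itga5*, singled out after its values were seen, followed the pattern of *Icam1*, with 76.3 to 88.3 CPM unstimulated, 75.3 to 84.96 CPM at 30 ng/ml and 94.4 to 100.1 CPM at 100 ng/ml. It was the 1 other α chain called between the concentrations, with a log2 fold change of 0.26 (SE 0.047, edgeR FDR = 0.0138). At 30 ng/ml *Itga7* rose by 0.38 (edgeR FDR = 0.000791), while *Itga8*, at −0.51 (edgeR FDR = 0.00932), and *Itgam*, at −0.36 (edgeR FDR = 0.0216), fell. Of 4 other β chains tested, *Itgb3* fell at 100 ng/ml (−0.54, edgeR FDR = 0.0265) and *Itgb5* at 30 ng/ml (−0.31, edgeR FDR = 0.0116). *Itgb4*, the next most abundant of these after *Itgb5* at a mean of 52.0 TPM, did not pass the threshold. The medians of the tested α chains were −0.0025 at 100 ng/ml and 0.0054 at 30 ng/ml, near those of all genes.

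Of 20 other leukocyte adhesion molecules 12 were tested. Among those that did not pass the filter on low counts were the selectins *Sele* and *Selp*, the endothelial molecules *Madcam1*, *Icam2* and *Pecam1*, and *Icam4*. *Glycam1*, a mucin-like adhesion glycoprotein, rose by 0.62 (SE 0.097, edgeR FDR = 0.000694) at 100 ng/ml and by 0.61 (SE 0.097, edgeR FDR = 0.00115) at 30 ng/ml, from 3.58 to 4.53 CPM in unstimulated cultures to 5.58 to 7.76 CPM at 30 ng/ml and 6.05 to 7.10 CPM at 100 ng/ml. Its stimulated and unstimulated cultures did not overlap, at a low count of 115 to 235 reads per culture and a mean of 18.8 TPM. *Selplg*, the P-selectin ligand PSGL-1, fell by 0.44 (edgeR FDR = 0.0216) and by 0.61 (edgeR FDR = 0.00394) at 100 and 30 ng/ml. At 30 ng/ml *Cd44*, the hyaluronan receptor, rose by 0.21 (edgeR FDR = 0.0221) and *F11r*, the junctional molecule JAM-A, fell by 0.40 (edgeR FDR = 0.00743). The remaining tested members of the list did not pass the threshold against unstimulated cultures. Among them were the most abundant of the list, *Jam2* and *Ncam1*, at means of 127 and 109 TPM.

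Of 20 activators and cytoskeletal linkers of integrins 19 were tested. At 100 ng/ml edgeR called 0 of them, as did its likelihood-ratio test, DESeq2 and limma, and 5 had an unadjusted p under 0.05. The median log2 fold change of the list was 0.02 there and −0.03 at 30 ng/ml. At 30 ng/ml the adaptor *Parva* rose by 0.17 (SE 0.049, edgeR FDR = 0.0408), and *Apbb1ip* (also called RIAM), at −0.39, *Parvg*, at −0.38, and the kinase *Ptk2b*, at −0.27, fell. *Ilk*, the integrin-linked kinase, and *Rap1a*, a small GTPase upstream of talin, were the most abundant of the list, at means of 247 and 186 TPM, with log2 fold changes of 0.08 (edgeR FDR = 0.336) and −0.23 (edgeR FDR = 0.0871) at 100 ng/ml. Of 7 membrane linkers and sheddases, the protease *Adam8* fell at both concentrations, by 0.22 (edgeR FDR = 0.0492) at 100 ng/ml and by 0.26 (edgeR FDR = 0.0270) at 30 ng/ml. Moesin (*Msn*) and ezrin (*Ezr*), which tie ICAM1 to the actin cortex, were the most abundant of these, at means of 341 and 187 TPM, and did not pass the threshold. Of 7 soluble integrin ligands tested, *Emilin1* rose at 100 ng/ml by 0.37 (edgeR FDR = 0.0195), and *Vwf* fell at 30 ng/ml by 0.47 (edgeR FDR = 0.00816). The most abundant of them, *Spp1* at a mean of 6295 TPM and *Fn1* at 691 TPM, did not pass the threshold.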

How the data were processed

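The authors made strand-specific mRNA libraries and sequenced them from one end. Their methods and labels name FastQC 0.10.0, STAR 2.7.8a, featureCounts, GRCm39, GENCODE M26, edgeR and DESeq2. The deposited values used here are of another kind, estimated counts and TPM of 121798 transcripts per culture. The program behind them, and whether it used the strand of reads, are not given in the sources used here, so reads of overlapping antisense genes may be shared out.

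Here the deposited estimated counts and TPM were summed to genes with GENCODE M39 on GRCm39, which matched 99.0% of transcripts (the others held 0.677% to 0.712% of reads), and counts were rounded. Mitochondrial genes held 3.35% to 4.14% of reads. Genes that reached 1 CPM in 2 or more cultures were scaled with TMM and tested with edgeR 4.0.16 (R 4.3.3) by its quasi-likelihood test, in 1 fit of 15 cultures, with Benjamini-Hochberg adjustment over 15360 genes and a threshold of 0.05. The common coefficient of variation between cultures that edgeR estimated was 8%, and this spread may be technical. The fit was tested on simulated counts. Intervals of 95% come from the standard errors. Ratios of TPM were tested by exact permutation of cultures. Alternatives were RLE factors, library size alone, 2 other count filters, the likelihood-ratio test, DESeq2 1.42.0, only the groups compared, a replicate block, an effective-length offset, limma 3.58.1 on log2(TPM + 1), and each culture left out. The genes, lists and tests were chosen with earlier results of these data known, and the ratios after their values had been seen. From each list of the adhesion machinery, up to 4 called genes with the largest fold change and 2 with the highest mean TPM are named, and others only where stated. Some members of the lists are not reported here by name. Promoters came from RefSeq (GRCm38.p6).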

Additional observations from a re-analysis of the deposited data

Results flagged for a closer look

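In 2 of 24 groups of 5 cultures searched (8 genes in 3 groups), 1 culture lay far above the others, by a gap that exceeded 0.71 of the group's range (Dixon's 95% limit, which chance passes in about 1 of 20 groups, so 2 of 24 is near what chance gives). *Icam1* at 30 ng/ml was 47.08 CPM in the third replicate and at most 41.26 CPM in the others, a gap of 0.75 of the range. Without that culture the log2 fold change of *Icam1* at 30 ng/ml was −0.03 (edgeR FDR = 0.798). *Esm1* at 100 ng/ml was 14.54 CPM in the first replicate and at most 12.82 CPM in the others, a gap of 0.858 of the range. Its lowest culture at 100 ng/ml, 12.54 CPM, was still above the highest unstimulated culture, 7.185 CPM.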

How the results depend on the processing

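In 25 other settings each, *Vcam1* and *Esm1* kept their calls at both concentrations, and *Icam1* kept those at 100 ng/ml against both other groups. *Alcam* at 100 ng/ml was called in 5 of 25 and *Itgb2* at 30 ng/ml in 21 of 25. *Alcam* at 30 ng/ml was called in 2 settings, with only the groups compared (FDR = 0.0232) and without the second replicate at 100 ng/ml (FDR = 0.0373). Causes were not tested. The number of genes called at 100 ng/ml, 1500, was 946 with only the groups compared, 906 with an effective-length offset and 828 with limma on log2(TPM + 1), and 940 to 2932 with 1 culture left out. It was 940 and 946 without unstimulated replicates 5 and 1 in turn, and 953, 2932 and 949 without replicates 1, 2 and 3 at 100 ng/ml. At 30 ng/ml it was 1209, 776 with the offset and 673 to 1668 with 1 culture left out, namely 740 and 754 without replicates 1 and 5 at 30 ng/ml and 673 and 794 without unstimulated replicates 3 and 4. Of the calls at 30 ng/ml, 52.9% were higher, against 63.1% with library size only and 65.1% with limma. Between the concentrations it was 89, 253 with the likelihood-ratio test, 247 with DESeq2 and 52 with limma, and 38 to 147 with 1 culture left out (56, 147, 53 and 58 without replicates 1, 2, 4 and 5 at 100 ng/ml, 55 and 38 without replicates 1 and 5 at 30 ng/ml). Of the 8 genes, 2 in place of 1 were then called with the likelihood-ratio test and 2 with DESeq2, as *Itgal* joined *Icam1*.

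Signs turned only for fold changes that missed the threshold. At 100 ng/ml *Itgb1* was 0.0081 with library size only, 0.0067 without a filter, 0.0027 with at least 10 reads per culture and 0.0025 with only the groups compared, and *Itga4* was −0.0026 with limma. Between the concentrations *Vcam1* was −0.034 and *Itgb1* −0.015 with limma. With 1 culture left out, the ranges that crossed 0 were −0.036 to 0.020 for *Itgb1* and −0.087 to 0.11 for *Itga4* at 100 ng/ml, −0.030 to 0.040 for *Icam1* at 30 ng/ml, and −0.0034 to 0.11 for *Vcam1*, −0.0026 to 0.053 for *Itgb1* and −0.083 to 0.0015 for *Alcam* between the concentrations. The difference of *Itgb2* per 100 TPM of microglia markers at 100 ng/ml was −0.0783 without the 4 most abundant markers in the sum and −0.0217 to 0.0630 with 1 unstimulated culture left out, −0.0217 being without replicate 4. At 30 ng/ml it had an exact p of 0.0238 with CPM and 0.0317 without the first unstimulated replicate.

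With the replicate number as a block, 1169, 1081 and 69 genes were called in the 3 comparisons, and 4, 3 and 1 of the 8 genes, with no call of the 8 genes changed. Of 15 pairs of cultures with the same number, 2 had deviations correlated over 0.1 (range −0.182 to 0.269), so the numbers did not pair the cultures. *Esm1*, at 145 to 464 reads, rests on the least depth.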

Other observations

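The genes most alike to each of the 8 were sought among 13866 protein-coding genes by Pearson's r of log2(CPM + 0.1) over the 15 cultures, which share libraries and group differences, so these are descriptions. Beside r over all cultures stands r within groups, after each group's mean was removed. For *Vcam1* they were *Ctps1* (r = 0.962, 0.874 within groups), *Serpina3i* (0.917, 0.700) and *Prokr1* (0.914, 0.721). For *Icam1* they were *Slc31a2* (0.927, 0.666), *Mvp* (0.923, 0.704) and *Pik3r5* (0.919, 0.675). For *Esm1* they were *Mbd1* (0.955, 0.527), *Elmo2* (0.944, 0.468) and *Eci2* (0.943, 0.319), whose likeness within groups was the weakest. For *Alcam* they were *Zfp800* (0.914, 0.836), *Eif5a2* (0.887, 0.809) and *Ythdc1* (0.882, 0.845).

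Likeness to the integrin chains was about as high within groups as over all cultures. *Itgb2* was most alike to *Myo1f* (0.989, 0.979 within groups), *Gusb* (0.987, 0.972) and *Evi2a* (0.984, 0.974). *Itgal* was most alike to *Ms4a6d* (0.956, 0.943), *Adgre1* (0.938, 0.945), the gene of the macrophage antigen F4/80, and *Aoah* (0.937, 0.898). *Itga4* was most alike to *Adam17* (0.891, 0.940), *Mctp1* (0.886, 0.878) and *Nfxl1* (0.883, 0.881), and *Itgb1* to *Rpl10* (0.891, 0.890), *Ptprj* (0.882, 0.878) and *Eif2s2* (0.855, 0.853).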
